A study of Dugesia japonica with 16 samples.

Results

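In regenerating pieces of the planarian flatworm *Dugesia japonica*, 89 of 16873 transcript components were lower in every PCTR3 and RCTR3 library than in every vehicle library and also fell by at least 0.7 on the log2(TPM + 1) scale with each compound. A component is the set of assembled transcripts whose identifiers differ only in their last number, and it stands in for a gene, because no gene names come with the identifiers. The members were chosen by their measured values: a vehicle mean of at least 2 TPM (a transcript level corrected for transcript length and set relative to the whole library), a mean log2(TPM + 1) at least 0.7 below vehicle for each compound, and all 8 PCTR3 and RCTR3 libraries below all 4 vehicle libraries. Their difference from vehicle is therefore a description and was not tested. The MCTR3 libraries took no part in the choice. The 89 components hold 115 of the 44857 transcripts in the file.

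The 16 libraries came from posterior pieces of worms whose heads had been removed behind the eyes, with 4 libraries each for MCTR3, PCTR3, RCTR3 and vehicle. Worms in every group had been starved for 7 days at 20 °C, and the pieces were collected after 48 h in water with 10 nM of 1 compound or with 0.1% ethanol as vehicle. Planarians rebuild a missing head from adult stem cells called neoblasts, whose descendants form a bud, the blastema, at the wound while the remaining tissue is reshaped. The 3 compounds are cysteine-bearing members of the maresin (MCTR3), protectin (PCTR3) and resolvin (RCTR3) families of lipid mediators, made from docosahexaenoic acid and known for speeding the resolution of inflammation and the regrowth of planarian tissue. Cysteine and hydroxyl sit at other carbons of the chain in each family, and the resolvin conjugate has 1 more hydroxyl group.

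The libraries numbered 1 to 8 in the labels are vehicle and MCTR3, and those numbered 9 to 16 are PCTR3 and RCTR3, so for these members the compounds cannot be told apart from position in the numbering. Read depth is unknown, and the labels do not say whether the libraries of a group came from separate batches of worms, so p-values measure the spread between libraries, which may be technical. The deposited TPM of a library summed to between 1000.3 and 1024 kTPM (1 kTPM is 1000 TPM) with MCTR3, 956 and 992 with PCTR3, 926 and 966 with RCTR3, and 1029 and 1129 with vehicle. This scale moves in the direction of the members, and rescaling every library to 1 common sum kept all 89 members lower with PCTR3 and with RCTR3, while 34 of them still met every condition of the rule. That rescaling shifted the median of all 15762 tested components to 0.12 for PCTR3 and 0.15 for RCTR3 on the log2 scale, where the members' medians were -0.68 and -0.75. Every member was chosen for a fall of at least 0.7, more than this shift, so the kept direction is no test.

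As deposited, the members' median difference from vehicle was -0.80 with PCTR3 and -0.90 with RCTR3 on the log2(TPM + 1) scale, beside medians of 0.01 for each compound over all tested components. In plain levels the median member stood at 55.7% of its vehicle mean with PCTR3 and at 51.6% with RCTR3. A fall of at least 1 on the log2(TPM + 1) scale was seen in 14 members with PCTR3, in 26 with RCTR3 and in 10 with both. The members together held 1.93% to 2.66% of a library's TPM with PCTR3, 1.97% to 2.39% with RCTR3 and 3.17% to 3.29% with MCTR3, against 3.56% to 4.11% with vehicle. In whole pieces of tissue, fewer cells of a type and less RNA per cell cannot be told apart.

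Many members were abundant. Their vehicle means ran from 3.70 to 9990 TPM with a median of 72.0 TPM, against a median of 19.0 TPM over the 14187 components that reached the vehicle minimum. Of the members, 33 (37.1%) stood at 100 TPM or more in vehicle, compared with 11.3% of those components, and 9 (10.1%) stood at 1000 TPM or more, compared with 1.18%. The vehicle levels of 6 members were among the 100 highest vehicle levels in the file. The rule itself favours abundant components. It used these vehicle values, and on the log2(TPM + 1) scale the same fold change counts for less at low TPM. These levels therefore describe the members, and nothing is read from their distance to the other components.

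The most abundant member, comp115868_c0, had 7442, 8142, 8272 and 8253 TPM in the MCTR3 libraries, 5939, 4999, 6199 and 5886 TPM in the PCTR3 libraries and 4949.8, 5763, 6319 and 6461 TPM in the RCTR3 libraries, against 9861, 10585, 8295 and 11218 TPM in the vehicle libraries. It held the rank of 4 among all components in vehicle, and its PCTR3 and RCTR3 libraries lay well under every MCTR3 and vehicle library, with log2(TPM + 1) changes of -0.79 for PCTR3 and -0.76 for RCTR3. The next most abundant, comp138714_c1, averaged 4627 ± 77.9 TPM with MCTR3, 3286 ± 393 TPM with PCTR3 and 3117 ± 214 TPM with RCTR3, against 5495 ± 705 TPM in vehicle (SD, n = 4 each). Its MCTR3 libraries, between 4535 and 4719 TPM, fell in the gap between the highest PCTR3 library at 3815 TPM and the lowest vehicle library at 5031 TPM. comp67611_c0, chosen here after its values were seen as the next in rank, had 4214, 4005, 4209 and 3887 TPM in the MCTR3 libraries, 2123, 1746, 3046 and 2814 TPM in the PCTR3 libraries and 1844, 1423, 2566 and 2387 TPM in the RCTR3 libraries, against 4979.6, 4456, 4722 and 5634 TPM in the vehicle libraries. Its MCTR3 libraries lay below every vehicle library and above every PCTR3 and RCTR3 library.

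The deepest fall on average over both compounds was that of comp141186_c0, a component of low level. It had 15.3, 12.5, 17.0 and 12 TPM in the MCTR3 libraries. With PCTR3 it stood at 4.72, 0.006 and 9.97 TPM in replicates 1 to 3 and was listed at 0 in replicate 4, with RCTR3 it had 2.21, 1.93, 5.07 and 0.092 TPM, and in vehicle 14.1, 14, 15.1 and 22.7 TPM. The spread between libraries within each of these compound groups was about as large as their means, although no library of either reached a vehicle library. It was the sole member listed at 0 anywhere. The next largest falls on average over both compounds belonged to comp126079_c0 and comp145514_c0. comp126079_c0 had 165, 160.2, 172 and 172 TPM in the MCTR3 libraries, 99.4, 68.7, 119.6 and 92.1 TPM in the PCTR3 libraries and 77.3, 77.1, 107 and 102 TPM in the RCTR3 libraries, against 205, 214, 197 and 255 TPM in the vehicle libraries. Its groups formed 3 separate levels, with MCTR3 between the others, and it changed by -1.21 for PCTR3 and -1.26 for RCTR3 on the log2(TPM + 1) scale. comp145514_c0 had 116, 123, 103 and 92.0 TPM in the MCTR3 libraries, 81.1, 57.6, 90.4 and 54.8 TPM in the PCTR3 libraries and 54.7, 28.7, 66.2 and 75.2 TPM in the RCTR3 libraries, against 212, 133, 104 and 146 TPM in the vehicle libraries. Here vehicle replicate 1 stood apart at the high end and RCTR3 replicate 2 at the low end, and the MCTR3 libraries overlapped those of vehicle.

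Few members lay far past the threshold, and many components without overlap fell by less than it. Of 2360 components with no overlap and the vehicle minimum, 2271 fell by less than 0.7 with at least 1 of the compounds. That count takes in smaller falls of any size. Just inside the threshold, comp144410_c3 changed by -0.79 for PCTR3 and -0.700 for RCTR3 and comp116075_c0 by -0.701 for PCTR3 and -0.79 for RCTR3. Just outside it, comp123619_c0 changed by -0.696 for PCTR3 and -0.78 for RCTR3 and comp145971_c0 by -0.695 for PCTR3 and -0.74 for RCTR3. The mean of comp145971_c0 was 36.9 ± 4.25 TPM with PCTR3 and 35.7 ± 3.37 TPM with RCTR3, against 60.2 ± 2.62 TPM in vehicle (SD, n = 4 each). With a threshold of 0.5 in place of 0.7, 400 components would have been members.

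**Figure D1:**
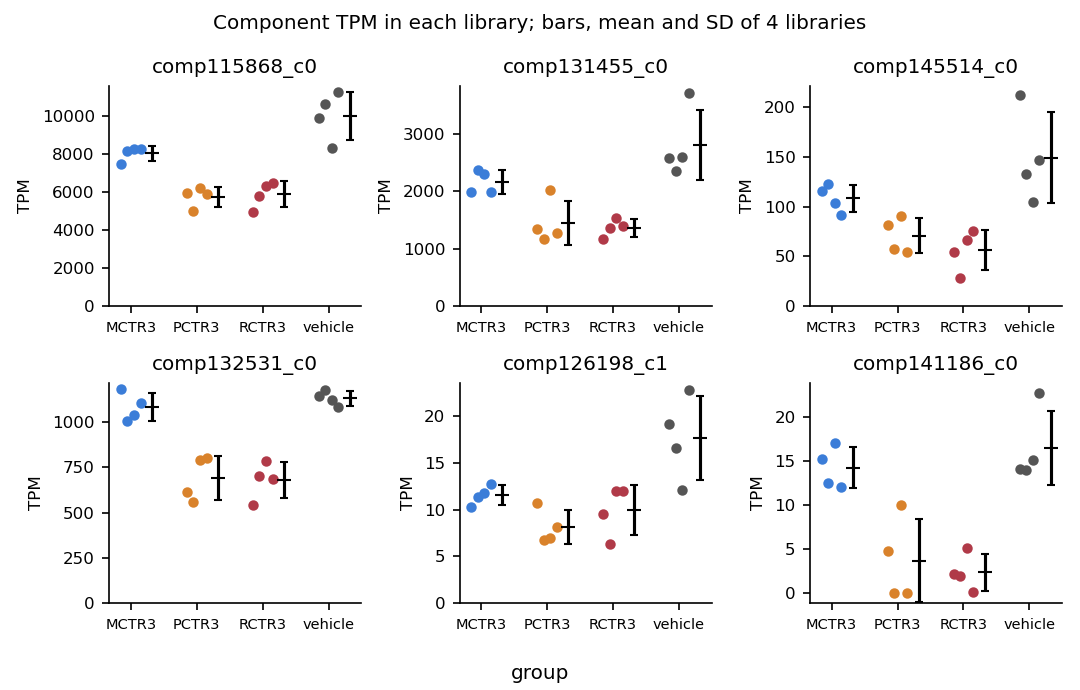
TPM (vertical axis, linear) of 6 members in every library of each group (horizontal axis), with points for libraries and a black bar for the mean and SD of 4 libraries. The PCTR3 and RCTR3 libraries lie below the vehicle libraries in each, while MCTR3 lies between them in comp115868_c0 and overlaps vehicle in comp141186_c0.

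**Figure D2:**
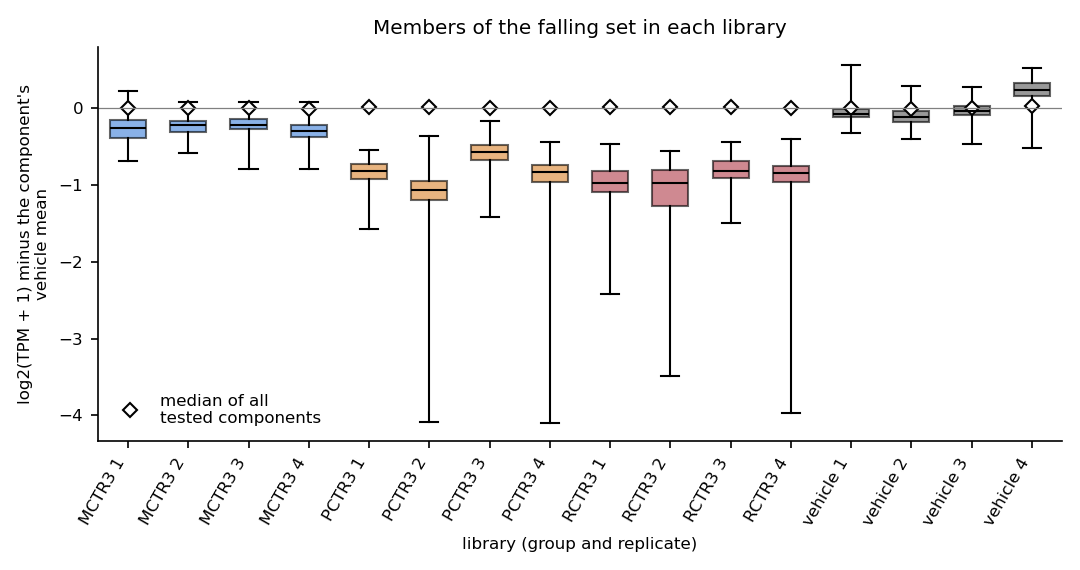
Difference of each of the 89 members from its own vehicle mean, in log2(TPM + 1) (vertical axis), for each library (horizontal axis). Boxes span the quartiles with the median as a line, whiskers reach the lowest and highest member, and diamonds mark the median of all 15762 tested components, which lies between -0.02 and 0.03 in every library.

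In the PCTR3 group and in the vehicle group, most members were highest in the same library. In PCTR3 replicate 2 the median member lay -1.07 from its vehicle mean and in replicate 3 -0.57, with -0.82 and -0.83 in replicates 1 and 4 (log2(TPM + 1)). Replicate 2 was the lowest PCTR3 library for 70 of 89 members and replicate 3 the highest for 72, where the same libraries were lowest and highest for 32.3% and 29.3% of all tested components. The RCTR3 libraries were closer, between -0.98 and -0.82, with replicates 1 and 2 lowest for 41 members each. Vehicle replicate 4 stood 0.23 above the members' vehicle means while the other vehicle libraries lay between -0.12 and -0.05, and it was the highest vehicle library for 75 members, against 40.1% of all tested components. It was also the library with the largest TPM sum, 1129 kTPM, and the part of that sum in these values was not tested. Without vehicle replicate 4 the rule held for 59 components, 55 of them members, and the members' medians were -0.74 with PCTR3 and -0.81 with RCTR3. Without PCTR3 replicate 2 the rule held for 59 components, all of them members. The MCTR3 libraries were the most alike, with medians between -0.30 and -0.23. Replicates 1 to 4 of MCTR3 were the highest of their group for 20, 26, 31 and 12 members. Within groups the median SD of a member was 0.10 with MCTR3, 0.23 with PCTR3 and 0.18 with RCTR3, against 0.19 in vehicle, while that of all tested components was 0.10, 0.13, 0.12 and 0.13. The rule used these same vehicle, PCTR3 and RCTR3 values. That choice favours components that single libraries raised in vehicle or lowered with PCTR3 or RCTR3. Nothing is therefore read from the distance of these counts and SDs to those of all tested components.

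MCTR3 lay between vehicle and the other compounds in all 89 members. Its group mean was below the vehicle mean in 89 members, as it was in 51.2% of all tested components, and above both the PCTR3 and the RCTR3 mean in 89, as in 42.8%. The rule picked components for high vehicle and low PCTR3 and RCTR3 values in these same libraries, and that choice favours a middle position for any group that took no part in it. The MCTR3 counts, differences and shares given here and below therefore describe the members, and the figures for all tested components, which were not chosen in this way, are no measure of what the choice alone would give. The members' median MCTR3 difference from vehicle was -0.26 on the log2(TPM + 1) scale, from -0.54 to -0.06, against a median of 0.00 over all tested components. The median member kept 82.6% of its vehicle mean with MCTR3. Expressed as a share of the member's own fall with PCTR3 and RCTR3, the MCTR3 difference had a median of 29.5% and ran from 7.11% to 60.9%. That median was 22.2% without vehicle replicate 4 and 25.9% after rescaling to a common sum. For 280 components that rose by the mirrored rule, the MCTR3 difference was a median 28.9% of the rise. Those components share the same vehicle libraries.

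**Figure D3:**
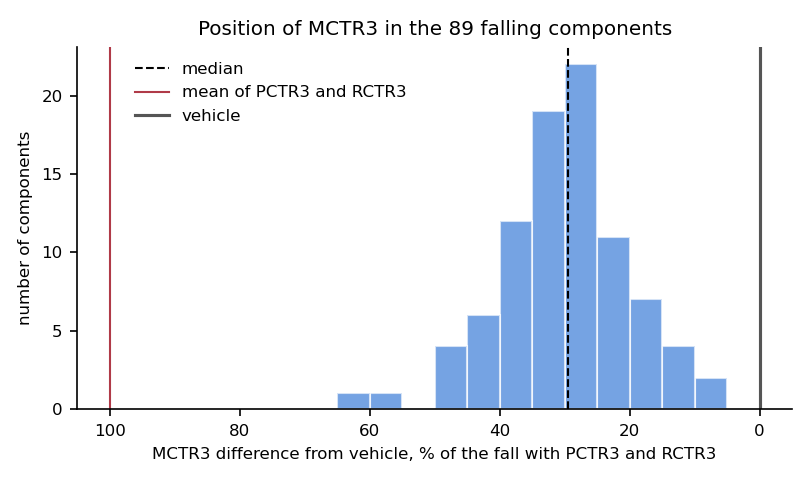
Number of members (vertical axis) by the MCTR3 difference from vehicle as a percentage of the fall with PCTR3 and RCTR3 (horizontal axis, in bins of 5%, running down to 0 at the vehicle level). The 89 members form 1 peak around a median of 29.5%, and none lies at or beyond either end.

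The 4 MCTR3 libraries lay below all 4 vehicle libraries in 38 of the 89 members, a pattern found in 4.28% of all tested components. They lay above all 8 PCTR3 and RCTR3 libraries in 70 members, against 9.66% of tested components, and in 75 when PCTR3 replicate 3 was left out. In 33 members they lay clear of both sides, against 2.01%. The rule set the vehicle, PCTR3 and RCTR3 side of each of these counts, so nothing is read from their distance to the share of tested components. Tested across all components, MCTR3 and vehicle differed in 0 members and in 0.0% of tested components (limma, adjusted p under 0.05). An unadjusted p under 0.05 was found for 45 members, against 9.57% of tested components, and the lowest adjusted p of a member was 0.51. For 61 members the 95% confidence interval stayed inside 1.5-fold in either direction, and for 87 inside 2-fold, and it lay wholly below 0 for 45. The members' vehicle values entered the choice, so neither the 45 nor their p-values are independent of it.

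Named members show the range of MCTR3 positions. The lowest p for MCTR3 against vehicle belonged to comp145873_c1, with 63.6, 79.5, 78.2 and 77.0 TPM in the MCTR3 libraries, 58.1, 49.0, 55.5 and 60.6 TPM in the PCTR3 libraries and 53.3, 55.8, 58.3 and 65.9 TPM in the RCTR3 libraries, against 87.0, 96.2, 88.1 and 115 TPM in the vehicle libraries. Its MCTR3 libraries were all under its vehicle libraries and, apart from replicate 1, over every PCTR3 and RCTR3 library, with a difference from vehicle of -0.36 (SE 0.10; limma adjusted p = 0.51). comp84772_c0 came next, with 73.8, 89.5, 78.6 and 77.5 TPM in the MCTR3 libraries against 96.8, 88.6, 112 and 123 TPM in vehicle. Those groups overlapped by 1 library each, and the difference was -0.38 (SE 0.11; limma adjusted p = 0.51). Over all alternatives the adjusted p of these members ran from 0.35 to 0.99 and from 0.37 to 0.99.

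Nearest to vehicle were comp141186_c0, where MCTR3 took 7.11% of the fall, and comp132531_c0, where it took 8.78%. comp132531_c0 had 1183, 1004, 1036 and 1102 TPM in the MCTR3 libraries, 612, 559, 791 and 799.9 TPM in the PCTR3 libraries and 542, 704, 785 and 686 TPM in the RCTR3 libraries, against 1141, 1175, 1118 and 1081 TPM in the vehicle libraries. The MCTR3 range took in the whole vehicle range, and every PCTR3 and RCTR3 library lay below both. Its MCTR3 difference was -0.06 (SE 0.12; limma adjusted p = 0.85), which became 0.0073 after rescaling to a common sum, while the other 88 members stayed lower with MCTR3. Nearest to PCTR3 and RCTR3 were comp126198_c1, where MCTR3 took 60.9% of the fall, and comp105354_c0, where it took 57.8%. comp126198_c1 had 10.2, 11.4, 11.8 and 12.8 TPM in the MCTR3 libraries, 10.7, 6.72, 7.00 and 8.19 TPM in the PCTR3 libraries and 9.48, 6.38, 12 and 12 TPM in the RCTR3 libraries, against 19.1, 16.6, 12.1 and 22.7 TPM in the vehicle libraries. Its MCTR3 libraries overlapped the RCTR3 and PCTR3 libraries and reached above the lowest vehicle library. comp105354_c0 averaged 7.71 ± 1.40 TPM with MCTR3, 6.0 ± 1.42 TPM with PCTR3 and 5.99 ± 1.68 TPM with RCTR3, against 11.1 ± 3.48 TPM in vehicle (SD, n = 4 each).

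At the matched dose and time, the members' values with MCTR3 can be set beside those with the other conjugates as a description. The members were chosen for low PCTR3 and RCTR3 values in these same libraries, so a comparison of MCTR3 with either compound uses again the values that chose them and is no test. The members' median difference was 0.56 for MCTR3 minus PCTR3 and 0.65 for MCTR3 minus RCTR3 on the log2(TPM + 1) scale. In the limma fit over all components, 83 of 89 members passed an adjusted p of 0.05 with MCTR3 higher than PCTR3, where 9.45% of all tested components did, and 85 did so against RCTR3, where 14.3% of all tested components did. Nothing is read from these counts, which the choice of members favours. Without PCTR3 replicate 2 the count against PCTR3 was 61. Over all tested components, calls in either direction went from 2984 of 15762 to 1180 of 15733 in that setting. comp141186_c0, itself named for its fall with PCTR3 and RCTR3, differed by 2.42 (SE 0.62) from PCTR3 and by 2.42 (SE 0.62) from RCTR3.

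The members that did not pass in that fit were singled out after their values were seen. Against RCTR3 they were comp104751_c0, comp105354_c0, comp126198_c1 and comp140321_c1, and the last 3 also did not pass against PCTR3, along with comp124500_c0, comp131896_c1 and comp145514_c0. For comp126198_c1 the difference was 0.47 (SE 0.19) against PCTR3 and 0.23 (SE 0.19) against RCTR3, and for comp105354_c0 it was 0.32 (SE 0.20) and 0.34 (SE 0.20). comp140321_c1 had 59.4, 63.3, 52.0 and 88.5 TPM in the MCTR3 libraries, 59.2, 49.8, 53.9 and 46.3 TPM in the PCTR3 libraries and 52.2, 7.28, 49.0 and 52.2 TPM in the RCTR3 libraries, against 93.4, 81.4, 90.4 and 102 TPM in the vehicle libraries. Its RCTR3 replicate 2 lay far below the other libraries, and MCTR3 replicate 4 lay within the vehicle range.

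**Figure D4:**
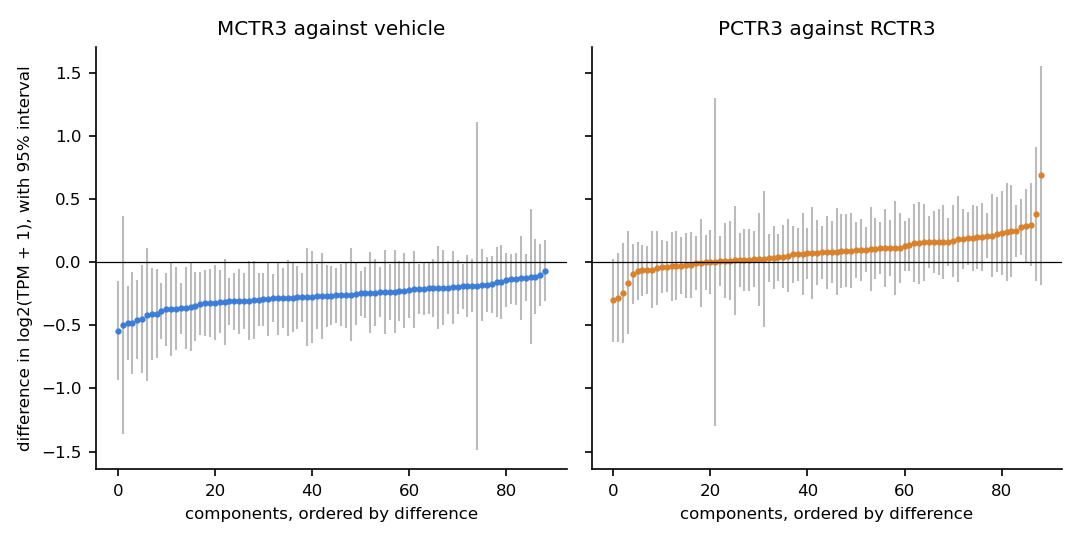
Difference in log2(TPM + 1) with its 95% confidence interval (vertical axis) for each of the 89 members, ordered by difference (horizontal axis), for MCTR3 against vehicle on the left and PCTR3 against RCTR3 on the right. The MCTR3 differences all lie below 0, from -0.54 to -0.06, while the PCTR3 and RCTR3 differences lie on both sides of 0.

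PCTR3 and RCTR3, set against each other, differed in 0 members and in 0.0% of tested components (limma, adjusted p under 0.05). An unadjusted p under 0.05 was found for 3 members, against 3.03% of tested components. The 95% interval stayed inside 1.5-fold in either direction for 80 members and inside 2-fold for 87, and a p that misses the threshold does not show that the compounds act alike. Most members were a little lower with RCTR3: its mean lay below that of PCTR3 in 69 of 89 (77.5%), against 51.5% of all tested components, with a median difference of PCTR3 minus RCTR3 of 0.08 on the log2(TPM + 1) scale. That median was -0.001 without PCTR3 replicate 3, the highest PCTR3 library for most members, and 0.15 without PCTR3 replicate 2. After rescaling every library to a common TPM sum it was 0.049. The members share the same libraries, so they are not separate observations of this difference. All PCTR3 libraries lay above all RCTR3 libraries in 1 member (0.939% of tested components), and the reverse held in 0 members (0.926%).

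The lowest p between these compounds belonged to comp65718_c0, with 49.7, 42.4, 58.2 and 46.8 TPM in the PCTR3 libraries and 42.1, 32.9, 43.5 and 42.7 TPM in the RCTR3 libraries. The groups overlapped, and the difference of 0.28 (SE 0.11; limma adjusted p = 0.9995) had a 95% interval of 0.06 to 0.50. comp147192_c0 was the member with no overlap, with 53.5, 52.2, 72.7 and 61.0 TPM in the PCTR3 libraries and 50.5, 50.4, 50.3 and 47.7 TPM in the RCTR3 libraries. The nearest libraries of the groups were PCTR3 replicate 2 and RCTR3 replicate 1, and the difference was 0.25 (SE 0.10; limma adjusted p = 0.9995).

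Most members consisted of a single transcript. This was so for 74 of 89 (83.1%), against 52.2% of the 14187 components at the vehicle minimum. The rule works on the component sum, in which a steady transcript dilutes the fall of another. The choice may therefore favour components of a single transcript, and its part in this contrast was not tested. The other 15 members held 41 transcripts, of which 35 were lower with both compounds and 22 were at least 0.7 lower with both (log2(TPM + 1)). The transcript with the highest vehicle mean was past 0.7 with both compounds in 14 of the 15. That transcript held 51.8% to 99.6% of the component's vehicle TPM, and the rule chose the sums for their fall. These transcript counts therefore follow largely from the choice, and nothing is read from them. comp131455_c0 has 3 transcripts, and comp131455_c0_seq1, the leading one, made up 58.5% of the component's TPM with MCTR3, 59.2% with PCTR3 and 61.7% with RCTR3, against 57.9% in vehicle. The whole component had 1982, 2368, 2303 and 1991 TPM in the MCTR3 libraries, 1351, 1177, 2021 and 1282 TPM in the PCTR3 libraries and 1169, 1358, 1533 and 1394 TPM in the RCTR3 libraries, against 2587, 2354, 2592 and 3705 TPM in the vehicle libraries. PCTR3 replicate 3 was the highest of its group and overlapped the MCTR3 libraries, and vehicle replicate 4 stood above the other vehicle libraries.

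The member with the most transcripts, comp145873_c1, holds 9, and its fall was uneven among them. comp145873_c1_seq11 had 38.3 ± 7.12 TPM with MCTR3, 27.6 ± 2.59 TPM with PCTR3 and 29.1 ± 3.87 TPM with RCTR3, against 53.0 ± 7.95 TPM in vehicle (SD, n = 4 each). comp145873_c1_seq6 had 13.5 ± 2.39, 13.9 ± 2.38 and 14.9 ± 0.767 TPM with MCTR3, PCTR3 and RCTR3, against 15.8 ± 2.22 TPM in vehicle, and its share of the component was 24.8% with PCTR3 and 25.5% with RCTR3, against 16.4% in vehicle. Reads from near-identical transcripts of 1 component can be split among them by the estimate, so the values of single transcripts are less certain than the component sum.

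Some members shared the stem of their identifier, the part before _c, with other components. The 89 members fall into 85 stems, and 2 stems hold more than 1 member. Stem comp126198 holds 4 members, each of 1 transcript. comp126198_c3 averaged 16.1 ± 3.05 TPM with MCTR3, 8.62 ± 1.77 TPM with PCTR3 and 10.8 ± 2.62 TPM with RCTR3, against 21.5 ± 3.2 TPM in vehicle (SD, n = 4 each). comp126198_c5 averaged 17.3 ± 1.26, 8.39 ± 2.63 and 8.54 ± 3.86 TPM with these compounds, against 18.9 ± 3.12 TPM in vehicle, and comp126198_c0 8.34 ± 1.71, 4.05 ± 0.535 and 5.32 ± 1.57 TPM, against 10.9 ± 1.52 TPM in vehicle. The other tested components of the stem were also lower, comp126198_c4 at -0.86 for PCTR3 and -0.59 for RCTR3 and comp126198_c6 at -0.94 for PCTR3 and -0.69 for RCTR3 on the log2(TPM + 1) scale, which left RCTR3 short of the threshold. If these components are pieces of 1 gene they are not separate observations.

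Across 19 stems, 28 other components were tested beside the members. With both compounds 17 of the 28 (60.7%) were lower than vehicle, against 44.3% of all tested components. None could be a member, so a component past 0.7 with both was listed only if it overlapped vehicle or missed the vehicle minimum. The count past 0.7 with both was 0, and nothing is read from it. The median difference of the 28 from vehicle was -0.25 with PCTR3 and -0.18 with RCTR3. Some went the other way. The values of comp145514_c1 were 21.3 ± 1.71 TPM with MCTR3, 28.6 ± 5.10 TPM with PCTR3 and 30.9 ± 2.62 TPM with RCTR3, against 18.5 ± 2.14 TPM in vehicle (SD, n = 4 each), beside the fall of comp145514_c0 described above. comp137785_c4 averaged 155 ± 2.06 TPM with MCTR3, 229 ± 47.4 TPM with PCTR3 and 232 ± 16.4 TPM with RCTR3, against 146 ± 13.2 TPM in vehicle, while its member comp137785_c2 averaged 1242 ± 24.9, 925 ± 102 and 771 ± 169.8 TPM with these compounds, against 1529 ± 238 TPM in vehicle. These were singled out after their values were seen.

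**Figure D5:**
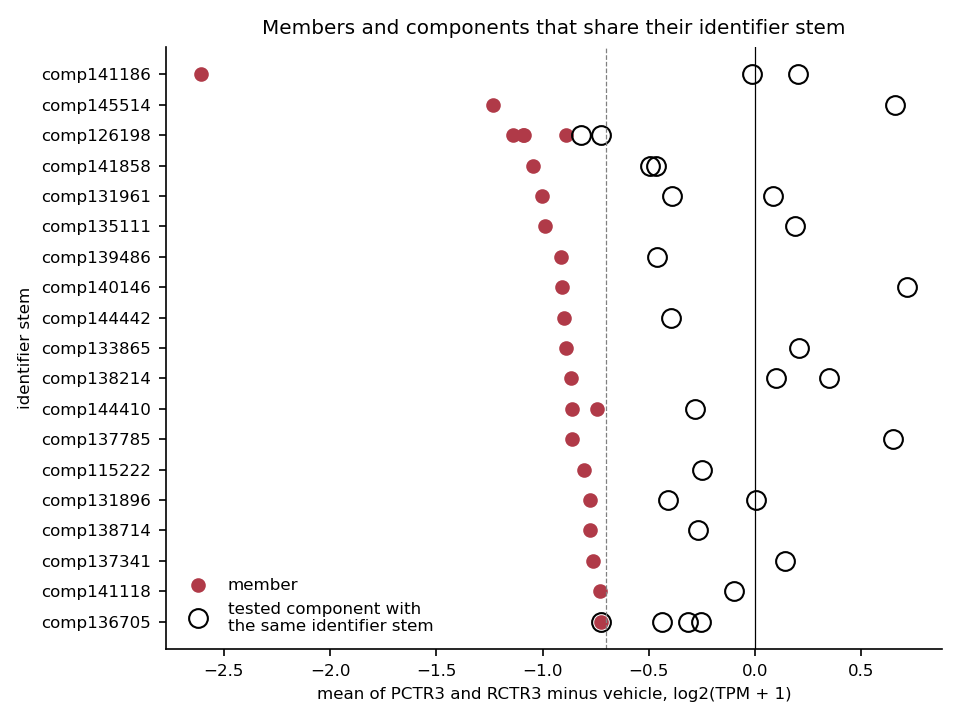
Mean of the PCTR3 and RCTR3 differences from vehicle in log2(TPM + 1) (horizontal axis) for members (filled) and for the other 28 tested components (open) of the 19 identifier stems that hold both (vertical axis). The dashed line marks -0.7. The open points reach from the region of the members in comp126198 to above 0 in many stems, furthest in comp140146, comp145514 and comp137785.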

How the data were processed

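The deposited values are log2 TPM, 1 column per library, matched to the sample titles by library number. Of the tools, kallisto and sleuth appear in the submitters' processing notes with no version, and the series' design text says that *D. japonica* transcript sequences were used. The sequence set, any filters and the scaling that leaves library sums unequal were not given in the sources used. A minimum of -34.92 was read as a TPM of 0, values were returned to the linear scale, summed per component and turned to log2(sum + 1). TPM keeps no read depth, so precision rests on 4 libraries per group. None of the 120 pairs of libraries was identical.

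Components with at least 1 TPM in at least 4 libraries were tested (15762, among them all 89 members, of which 87 were at 1 TPM or more in every library). limma 3.58.1 in R 4.3.3 fitted 4 group means to all 16 libraries with a variance trend on mean level. All tests were two-sided, with p-values adjusted by Benjamini-Hochberg over all tested components, with a threshold of 0.05. The fit for MCTR3 against vehicle was tried on simulated data with independent noise and planted changes. That simulation made no choice of members, so it does not bear on results for the chosen set. Summaries used Python 3.11.15. Alternatives covered scaling, pseudocount, filter, moderation, the groups fitted, the replicate number as a block and each library left out, and 2 medians under scaling and left-out libraries were added after the data had been seen.

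Named members were those with the highest vehicle level, the largest fall, the extreme MCTR3 positions, the lowest p for MCTR3 against vehicle and for PCTR3 against RCTR3, the most transcripts, and the nearest values on either side of the threshold, 2 of each. The members and the rule were chosen with earlier results of these data known.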

Additional observations from a re-analysis of the deposited data

Results flagged for a closer look

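In 72 groups of 4 libraries examined, 15 named members and 3 library measures in 4 groups each, the highest or lowest library stood apart from the others by Dixon's test in 10. Chance flags about 1 in 20 groups. High libraries were vehicle replicate 4 for comp138714_c1 (6542 TPM, the next 5273) and comp141186_c0 (22.7 TPM, the next 15.1), vehicle replicate 4 for the members' share of the library (4.11%, the next 3.59%), and PCTR3 replicate 2 for comp105354_c0 (8.11 TPM, the next 5.55). Low libraries were MCTR3 replicate 1 for comp115868_c0 (7442 TPM, the next 8142) and comp145873_c1 (63.6 TPM, the next 77.0), RCTR3 replicate 2 for comp65718_c0 (32.9 TPM, the next 42.1), RCTR3 replicate 4 for comp147192_c0 (47.7 TPM, the next 50.3), RCTR3 replicate 1 for comp116075_c0 (7.01 TPM, the next 11.1) and RCTR3 replicate 2 for its TPM sum (926 kTPM, the next 959). Vehicle replicate 4 accounts for 3 of the 10. No cause was tested.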

How the results depend on the processing

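The count of 0 members called was kept for MCTR3 against vehicle and for PCTR3 against RCTR3 in all 25 alternatives, and the counts for MCTR3 against PCTR3 (61 to 85) and against RCTR3 (81 to 85) stayed within 1.5 times their main value, although the choice of members favours both. The set itself moved with the rule. It held 34 components after rescaling to a common TPM sum, 56 with a pseudocount of 5, 10 with a threshold of 1, 400 with a threshold of 0.5 and 189 when the transcript with the highest vehicle mean stood in for the sum, and 59 to 132 when 1 library was left out. Median centring gave 104 with all 89 members among them. The mirrored rule gave 280 rising components as deposited, 527 after rescaling and 246 after median centring, so the balance of falls and rises depends on the scaling. The median MCTR3 difference from vehicle over members ranged from -0.30 to -0.18, with -0.18 without vehicle replicate 4. The sign of 1 named difference turned: comp132531_c0 for MCTR3 against vehicle, 0.0073 after rescaling. The causes were not tested. With the replicate number as a block, 80 members were called for MCTR3 against PCTR3 and 84 against RCTR3. Over all 15762 tested components, 3060 and 4361 were called in either direction. The choice of members favours these counts, so nothing is read from them. Deviations of same-numbered libraries correlated above 0.1 in 8 of 24 pairs (from -0.24 to 0.37) and 2 of 16 libraries were nearest to their own number. These values show no clear pairing by number, but they cannot exclude one, and the labels do not settle it. The unknown read depth limits what can be said of members at low TPM.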
